A study of Mus musculus with 10 samples.

Results

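The genes described here are 39 interferon-stimulated antiviral genes in the cheek skin of mice injected with matrix metalloproteinase 9 (MMP9) or with vehicle. They were chosen by gene symbol from a table of 18994 genes, and all 39 were found and had counts high enough to be tested, among 15250 tested genes. The choice was made with the values of all 10 libraries already known, including the contrast of MMP9 with vehicle. That contrast is therefore given for these genes as a description and supports nothing further. Each group held 5 healthy C57BL/6 mice aged 6 to 8 weeks, 1 mouse to a library. All had been shaved on the cheek 3 days earlier and were injected into the skin of the right cheek with 5 µL, and tissue was taken after 4 hours. The MMP9 group received 1 µg of the enzyme, a secreted gelatinase, and the control group the vehicle alone. The labels do not say what the vehicle held, where the MMP9 came from or which sex was used. An uninjected cheek was not analysed here, so levels in vehicle skin include any response to shaving and injection.

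Interferons are secreted proteins that put neighbouring cells into an antiviral state. Type I and type III interferons bind receptors whose JAK kinases activate transcription factors, among them a complex called ISGF3 that includes STAT2 and IRF9. ISGF3 binds a DNA motif, the interferon-stimulated response element, in front of many of the genes described here. Their products bind or cleave viral RNA, block viral enzymes, or amplify the response. In skin they are made by keratinocytes, fibroblasts and resident and infiltrating leukocytes, and many are also transcribed at a basal level.

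Promoter sequences are shown first because the binding motif is what these genes are known to share. The core of the motif was searched as GAAANNGAAA on both strands, in windows from 250 bases before to 50 bases after each gene's start (RefSeq, GRCm38.p6). Of the 39 genes, 30 had at least 1 window in that table, and 13 of these 30 (43.3%) held the core. A gene with more than 1 window was counted if any of its windows held the motif. Among all 27025 genes of the promoter table the share was 3.99%, and among the 12049 tested genes outside the 39 it was 3.76%. The 13 genes were Ifit1, Ifit3, Ifit3b, Isg15, Rsad2, Oas1a, Oas3, Stat2, Ifih1, Trim30a, Bst2, Eif2ak2 and Ifi203. The gamma-activated site, searched as TTCNNNGAA, which reads the same on both strands, was in the windows of 6 of the 30 (20.0%), against 9.55% of all genes in the table. It was found in Ifit2, Oas1a, Ifi35, Bst2, Eif2ak2 and Isg20. With 1 mismatch allowed in the core, 27 of 30 (90.0%) held it, against 38.9% of all genes. A match is a run of letters and not a measured binding site.

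The windows of the 4 genes that held the core and had the highest mean CPM (counts scaled to library size) are printed 5′ to 3′ on the gene's own strand, with every base of a core in capitals. Ifit3 lies at chr19:34583279-34583578, forward strand, Ifit1 at chr19:34640639-34640938, forward strand, Isg15 at chr4:156200769-156201068, reverse strand, and Ifi203 at chr1:173942443-173942742, reverse strand. Where the core is on the opposite strand it reads as TTTC, any 2 bases, TTTC.
Ifit3: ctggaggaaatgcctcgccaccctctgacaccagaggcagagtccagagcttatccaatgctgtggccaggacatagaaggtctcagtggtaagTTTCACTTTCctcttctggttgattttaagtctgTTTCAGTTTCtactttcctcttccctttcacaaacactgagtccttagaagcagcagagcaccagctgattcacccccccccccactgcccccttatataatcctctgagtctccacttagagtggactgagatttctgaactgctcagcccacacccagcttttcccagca
Ifit1: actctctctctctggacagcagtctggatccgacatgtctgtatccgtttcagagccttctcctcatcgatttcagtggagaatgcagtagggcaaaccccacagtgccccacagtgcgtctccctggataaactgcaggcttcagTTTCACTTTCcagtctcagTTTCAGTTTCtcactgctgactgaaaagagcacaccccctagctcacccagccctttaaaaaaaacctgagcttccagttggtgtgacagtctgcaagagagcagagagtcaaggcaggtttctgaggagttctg
Isg15: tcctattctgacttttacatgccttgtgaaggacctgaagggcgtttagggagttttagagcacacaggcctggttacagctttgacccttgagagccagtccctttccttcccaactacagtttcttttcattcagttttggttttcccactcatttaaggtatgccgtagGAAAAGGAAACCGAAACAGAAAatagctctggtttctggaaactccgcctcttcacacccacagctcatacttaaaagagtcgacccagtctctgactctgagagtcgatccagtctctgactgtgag
Ifi203: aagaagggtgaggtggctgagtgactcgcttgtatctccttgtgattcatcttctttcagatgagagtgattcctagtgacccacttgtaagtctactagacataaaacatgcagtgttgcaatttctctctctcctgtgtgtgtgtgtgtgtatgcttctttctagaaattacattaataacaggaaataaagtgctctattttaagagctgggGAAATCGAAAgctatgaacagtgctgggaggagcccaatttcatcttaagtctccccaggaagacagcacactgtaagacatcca
Ifit3 held cores 156 and 122 bases before its start, and Ifit1 held them 104 and 85 bases before. In both genes the pair lay on the strand opposite to transcription. Isg15 carried 3 cores that overlap one another, beginning 78, 72 and 66 bases before the start. Ifi203 had a single core 35 bases before the start used for the printed window. Its other window, at chr1:173942623-173942922, held no core. Members with the core had a median log2 fold change of MMP9 over vehicle of 0.37 (n = 13), and members with a window but no core had 0.34 (n = 17).

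Across the whole table the comparison called no gene. By edgeR's quasi-likelihood test with Benjamini-Hochberg adjustment, 0 of 15250 genes (0%) passed 0.05, and 0 of the 39. The adjusted p was at least 0.981 for every one of the 39. At an unadjusted p under 0.05 there were 7 of the 39 genes (Ifit1, Ifit2, Rsad2, Cmpk2, Samd9l, Ifi203 and Phf11d), all with the higher mean in MMP9, against 3.19% of all tested genes. Nothing is read from that count, since the contrast was used in the choice. The count was 17 without vehicle replicate 5 or without MMP9 replicate 2. It was 12 without vehicle replicate 3, and 4 without vehicle replicate 1. It was 3 without MMP9 replicate 5, and 2 when vehicle mouse 2, vehicle mouse 4 or MMP9 mouse 1 was left out. By DESeq2 0 of the 39 were called and 10 were under 0.05 unadjusted, and by limma-voom 0 were called and 6 were under 0.05. Over all 18 alternatives the number of the 39 under an unadjusted 0.05 ran from 1 to 17. The group mean was higher in MMP9 for 38 of the 39 genes, and 53.7% of all tested genes had a positive log2 fold change. The median log2 fold change was 0.31 over the 39 genes and 0.01 over all tested genes. No gene of the 39 had groups that did not overlap, where 0.564% of all tested genes did. In 4 of the 39 genes (Ifit1, Ifit2, Cmpk2 and Ifi44) 4 of 5 MMP9 libraries lay above every vehicle library. The share of all tested genes with 4 or 5 such libraries was 2.29%. The 95% interval of the log2 fold change contained 0 for 32 of the 39 genes, and its upper end lay under 1 for 33.

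**Figure D1:**
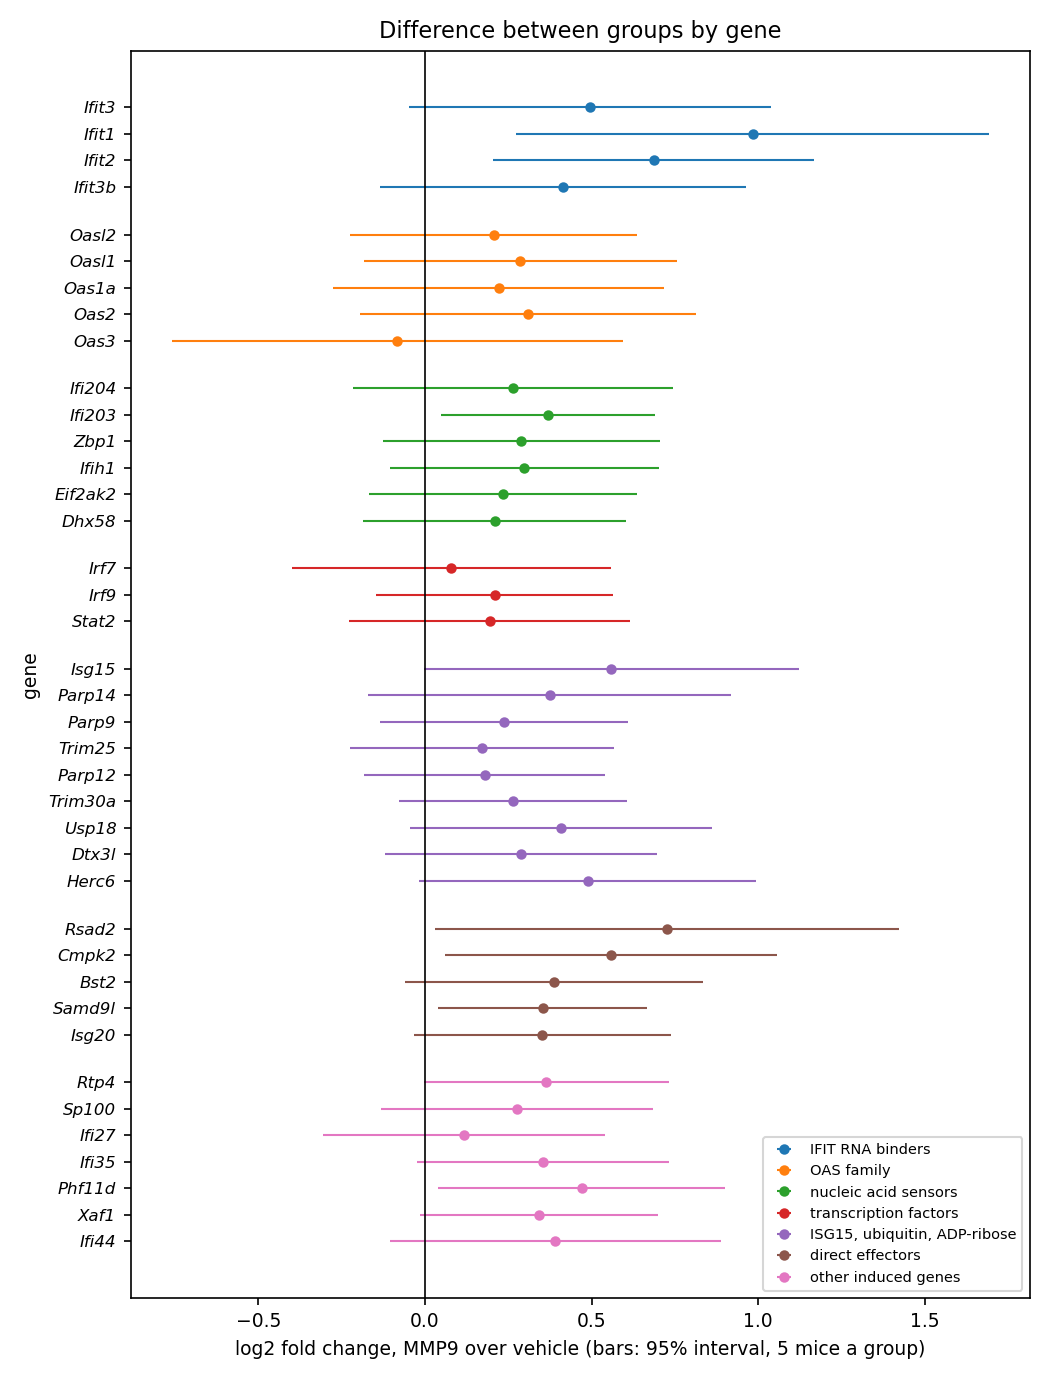
Log2 fold change of MMP9 over vehicle (x axis) for each of the 39 genes (y axis, grouped and coloured by role); points are edgeR estimates and bars are 95% intervals from 5 mice a group. The estimates run from -0.08 for Oas3 to 0.98 for Ifit1, and 32 of the 39 bars cross 0.

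Libraries held 17121600 to 19443100 estimated counts and 17225 to 17553 detected genes, and the lowest count of any of the 39 genes in any library was 237. All 5 keratinocyte markers checked (Krt5, Krt14, Krt1, Krt10 and Dsp) were abundant, with a summed level of 7554 to 14735 CPM per library. The skeletal muscle markers summed to 10130 to 19326 CPM, so muscle transcripts were present beside those of skin. MMP9 replicate 4 stood apart: ribosomal protein transcripts made up 13.2% of its counts, against 6.74% to 7.61% in the other 9 libraries. Vehicle replicate 2 and MMP9 replicate 1 had almost no transcripts of the hair follicle keratins Krt71 and Krt86. They had 1.37 and 1.71 CPM of Krt71, an inner root sheath keratin, against at least 67.2 CPM elsewhere. Of the hair shaft keratin Krt86 they had 0.05 and 0.36 CPM, against at least 58.0 CPM elsewhere. Without both of these libraries 37 of the 39 genes had a higher mean in MMP9, and the median log2 fold change was 0.23, an alternative chosen after seeing the data.

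Among the IFIT proteins, IFIT1 binds viral RNA that lacks the host's cap methylation and holds it back from translation. Levels are in CPM scaled by the TMM factors, and errors are SDs over 5 mice. Ifit3 (Entrez gene 15959) was the most abundant of the 39 by CPM. It stood at 434, 387, 542, 235 and 486 CPM in vehicle mice 1 to 5, and at 728, 357, 526, 769 and 559 CPM in MMP9 mice 1 to 5. MMP9 mice 1, 4 and 5 lay above all vehicle mice, and MMP9 mouse 2 lay below 4 of them. The means were 417 ± 117 and 588 ± 166 CPM, a log2 fold change of 0.50 (SE 0.25). SE is the standard error implied by the log2 fold change and the F statistic of its test. The 95% intervals were built from it and so restate the unadjusted p. Ifit1 (Entrez gene 15957) had 228, 178, 297, 133 and 264 CPM in the vehicle mice and 452, 198, 729.6, 473 and 321 CPM in the MMP9 mice. Only MMP9 mouse 2 fell within the vehicle range, and the means were 219.9 ± 65.6 and 435 ± 199 CPM. The log2 fold change of Ifit1, 0.98 (SE 0.32, 95% interval 0.27 to 1.69), was the highest of the 39, and it was 0.71 without MMP9 replicate 3. Ifit2 and Ifit3b had log2 fold changes of 0.69 and 0.41, and Ifit3b had 0.25 without vehicle replicate 4. Ifit3 and Ifit3b are close copies: 51.2% of the 50-base words in Ifit3 transcripts also occur in Ifit3b (GENCODE M21). With reads of 50 bases and an unstated treatment of shared reads, their separate counts are uncertain.

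**Figure D2:**
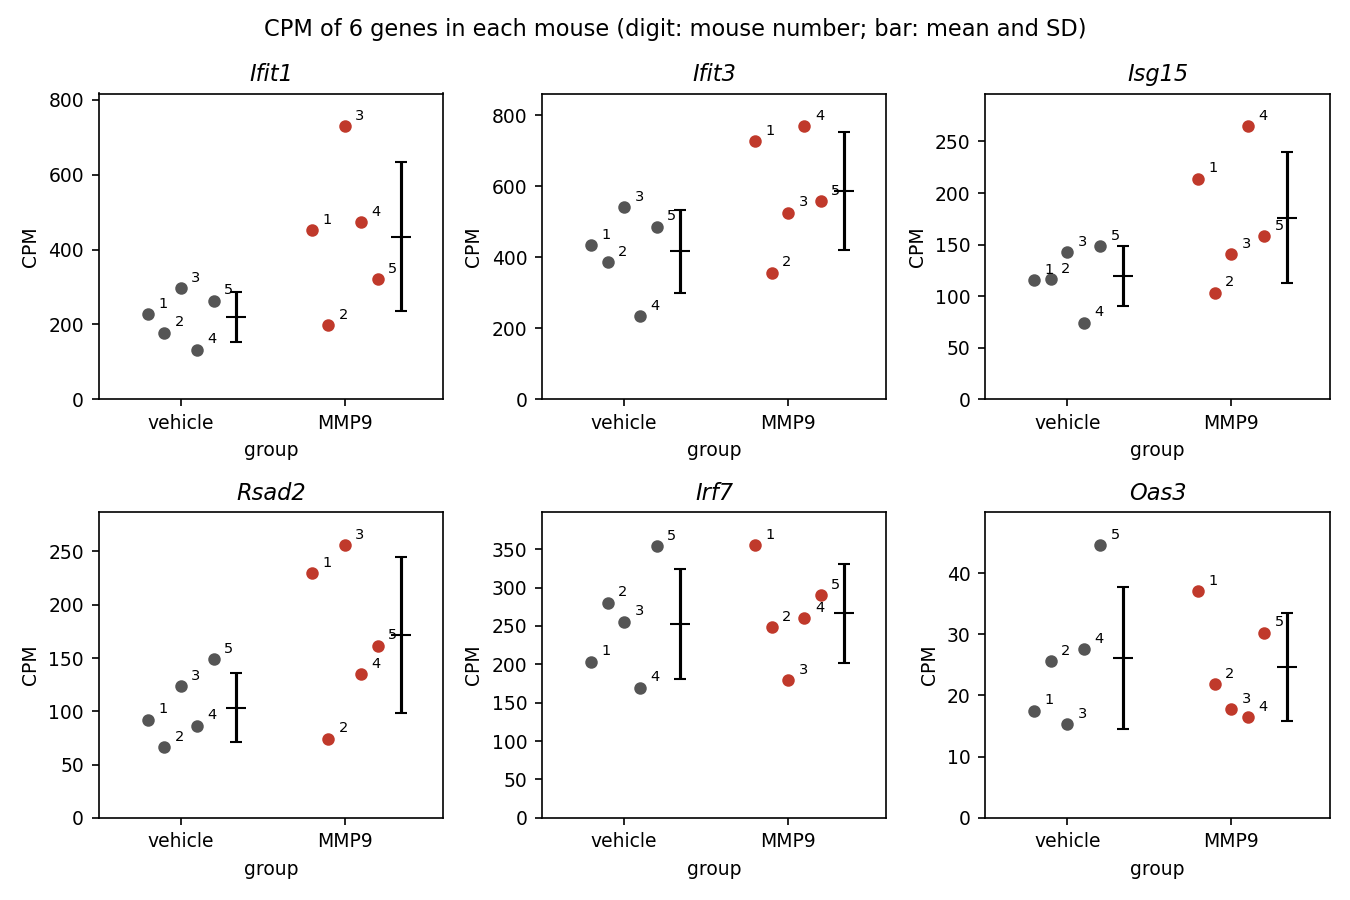
CPM (y axis, from 0) of 6 of the genes in every mouse, by group (x axis); each point is 1 mouse with its number, and the bar is the mean and SD of 5 mice. Both groups overlap in all 6 panels, and MMP9 mouse 2 lies inside the vehicle range in each.

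The OAS family makes or resembles enzymes that sense double-stranded RNA and produce the 2-5A signal that activates RNase L. The median log2 fold change was 0.22 over 5 genes, with 4 positive. Oasl2 (Entrez gene 23962) had 170.4, 206, 214, 138 and 217 CPM in vehicle and 323, 198, 177, 164 and 229.6 CPM in MMP9. Its log2 fold change of 0.21 was 0.02 without MMP9 replicate 1 and 0.10 without vehicle replicate 4. Oasl1 (Entrez gene 231655) had 50.7, 50.7, 70.7, 62.6 and 89.1 CPM in vehicle and 88.7, 49.1, 108, 73.2 and 75.9 CPM in MMP9, and only MMP9 mouse 3 exceeded vehicle mouse 5. Its log2 fold change of 0.29 was 0.14 without MMP9 replicate 3. Oas3 (Entrez gene 246727) was the single gene with a lower mean in MMP9. It had 17.5, 25.7, 15.4, 27.5 and 44.6 CPM in vehicle and 37.1, 21.8, 17.7, 16.4 and 30.3 CPM in MMP9. Every MMP9 value of Oas3 lay inside the vehicle range, and the log2 fold change was -0.08 (SE 0.31). Its sign turned without vehicle replicate 5 (0.19), MMP9 replicate 3 (0.01) or MMP9 replicate 4 (0.02). Oas1a and Oas2 had log2 fold changes of 0.22 and 0.31, and no MMP9 mouse exceeded the highest vehicle mouse in either. Without that vehicle mouse, replicate 5, the values were 0.43 and 0.54, and Oas1a had 0.13 without MMP9 replicate 1 or vehicle replicate 1. Of the 50-base words of Oas1a, 57.6% are shared with Oas1g, so its count is uncertain in the same way. The share was 45.0% in Ifit3b, and among the other genes it was highest in Ifi204, at 20.0%.

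Among the nucleic acid sensors all 6 genes had a higher mean in MMP9, with log2 fold changes from 0.21 to 0.37. Ifi204 (Entrez gene 15951), a DNA-binding protein of the interferon-inducible p200 family, had 177, 149, 140.3, 171 and 272 CPM in vehicle. It had 202, 136, 234, 278 and 244 CPM in MMP9, and only mouse 4 lay above vehicle mouse 5. The fold change of Ifi204, 0.27 on the log2 scale, was 0.16 without MMP9 replicate 4 and 0.45 without vehicle replicate 5. Ifi203 (Entrez gene 15950), of the same family, had 127, 107, 121, 111 and 153 CPM in vehicle and 192, 116, 171, 148 and 170.4 CPM in MMP9. MMP9 mice 1, 3 and 5 lay above all vehicle mice, and the log2 fold change was 0.37 (SE 0.15). The others were Ifih1 (0.30), which encodes the RNA sensor MDA5, its relative Dhx58 (0.21), the Z-nucleic acid sensor gene Zbp1 (0.29), and Eif2ak2 (0.23), which encodes the RNA-dependent kinase PKR. Without MMP9 replicate 1 the values were 0.14 for Ifih1, 0.07 for Dhx58 and 0.08 for Eif2ak2, and without vehicle replicate 4 they were 0.19, 0.13 and 0.11. Without vehicle replicate 5 Zbp1 had 0.45 and Dhx58 0.33.

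The transcription factors of the response had a median log2 fold change of 0.19 over 3 genes. Irf7 (Entrez gene 54123), which drives interferon alpha genes and is itself induced, had 204, 280.4, 256, 169.7 and 354 CPM in vehicle and 356, 248, 179, 261 and 291 CPM in MMP9. The ranges nearly coincided, with means of 253 ± 71.2 and 267 ± 64.4 CPM. Its log2 fold change of 0.08 was -0.05 without MMP9 replicate 1 or without vehicle replicate 4, and 0.22 without vehicle replicate 5. Irf9 (Entrez gene 16391), the DNA-binding part of ISGF3, had 89.5, 113, 114, 71.9 and 109 CPM in vehicle and 142, 87.3, 118, 126 and 101 CPM in MMP9. Its log2 fold change of 0.21 was 0.12 without MMP9 replicate 1 and 0.10 without vehicle replicate 4. Stat2, its partner, had a log2 fold change of 0.19, which was 0.08 without MMP9 replicate 1 or vehicle replicate 4, 0.10 without MMP9 replicate 3 and 0.30 without MMP9 replicate 4.

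ISG15 is a ubiquitin-like protein that is attached to other proteins during the response. All 9 genes of its system, of the ubiquitin ligases and of the ADP-ribosyltransferases had a higher mean in MMP9, with a median of 0.29. Isg15 (Entrez gene 100038882) had 116, 116, 143, 74.3 and 148 CPM in vehicle and 214, 103, 141, 265 and 159 CPM in MMP9. MMP9 mice 1, 4 and 5 lay above all vehicle mice and mice 2 and 3 within their range. The log2 fold change of Isg15 was 0.56 (SE 0.26), and 0.36 without MMP9 replicate 4. Herc6 (0.49), the main ISG15 ligase of mice, and Usp18 (0.41), which removes ISG15 and dampens receptor signalling, were next. Herc6 had 0.29 without MMP9 replicate 1, and Usp18 had 0.27 without vehicle replicate 4. Parp14 (Entrez gene 547253), an ADP-ribosyltransferase, had 112, 94.2, 119, 82.9 and 134 CPM in vehicle and 207, 98.3, 184, 81.8 and 130.2 CPM in MMP9. Its MMP9 values thus ran from below every vehicle mouse to well above them all, and the log2 fold change of 0.37 was 0.19 without MMP9 replicate 1. Dtx3l (0.29) and Parp9 (0.24), whose products act as a complex, Trim30a (0.27), Parp12 (0.18) and Trim25 (0.17), a ligase that activates the sensor RIG-I, made up the rest. Without MMP9 replicate 1 all 5 were lower, at 0.15 for Dtx3l, 0.11 for Parp9, 0.16 for Trim30a, 0.03 for Parp12 and 0.06 for Trim25. Without vehicle replicate 4 Parp9 had 0.12, Parp12 0.08 and Trim25 0.09. Trim25 had 0.06 without MMP9 replicate 3 and 0.27 without MMP9 replicate 4.

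Direct effectors had a median log2 fold change of 0.39 over 5 genes. Rsad2 (Entrez gene 58185) encodes viperin, which makes a chain-terminating nucleotide from the product of CMPK2, and Cmpk2 is its neighbour on chromosome 12, on the opposite strand. Rsad2 had 92.2, 66.6, 124, 86.6 and 149 CPM in vehicle and 229.5, 74.4, 256, 135 and 162 CPM in MMP9. MMP9 mice 1, 3 and 5 lay above all vehicle mice, and MMP9 mouse 2 was below 4 of the 5. The log2 fold change of Rsad2 was 0.73 (SE 0.32). It was 0.53 without MMP9 replicate 3 and 0.92 without MMP9 replicate 2, and its lowest value over all alternatives was 0.48. Cmpk2 (Entrez gene 22169) had 88.9, 92.0, 132, 70.5 and 114 CPM in vehicle and 197, 82.4, 166, 146 and 141 CPM in MMP9, and all MMP9 mice except mouse 2 lay above every vehicle mouse. Its log2 fold change was 0.56 (SE 0.23). Without MMP9 replicate 1 it was 0.43, without MMP9 replicate 2 it was 0.71, and the lowest value over all alternatives was 0.40. Bst2, which encodes tetherin, had 0.39, and the exonuclease gene Isg20 and the translation inhibitor gene Samd9l each had 0.35. As single mice were left out, Bst2 ran from 0.27 to 0.52, Isg20 from 0.27 to 0.44 and Samd9l from 0.29 to 0.46.

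The 7 other induced genes had a median log2 fold change of 0.36. Rtp4 (Entrez gene 67775) had 84.2, 89.5, 94.3, 72.0 and 116 CPM in vehicle and 120.4, 82.5, 121, 153 and 110.1 CPM in MMP9, with mice 1, 3 and 4 above all vehicle mice. Sp100 (Entrez gene 20684), a protein of nuclear bodies, had 77.3, 90.0, 86.2, 87.4 and 122 CPM in vehicle and 147, 111, 83.3, 83.1 and 137 CPM in MMP9. Its log2 fold change of 0.28 was 0.16 without MMP9 replicate 1. Phf11d (0.47), Ifi44 (0.39), Ifi35 (0.36), Xaf1 (0.34) and Ifi27 (0.12) were the others. Ifi27 differed in pattern from the rest: its lowest value of all 10 libraries, 67.5 CPM, was in MMP9 mouse 1, and its highest, 151 CPM, in MMP9 mouse 4. Without that mouse its log2 fold change was -0.12, and it was 0.22 without MMP9 replicate 1 and 0.06 without vehicle replicate 3. Ifi44 had 0.24 without MMP9 replicate 1 and 0.25 without vehicle replicate 4, Xaf1 had 0.21 without vehicle replicate 4, and Ifi35 had 0.21 without MMP9 replicate 4.

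By TPM, which corrects for transcript length, the order of the genes in vehicle skin ran from Ifit3 at 355 ± 102 TPM to Oas3 at 9.31 ± 4.28 TPM (SD, n = 5). Isg15 (280 ± 72.1 TPM), Irf7 (237 ± 71.2 TPM) and Bst2 (187 ± 49.4 TPM) followed Ifit3, and each of these 4 differed from the next by less than the larger of their SDs. Ifi27 (153 ± 12.1 TPM) and Ifit1 (141 ± 42.9 TPM) came after. These transcripts were thus well detected in every vehicle mouse. Ifit1, sixth in vehicle, averaged 268 ± 141 TPM in MMP9.

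Vehicle mice differed among themselves in these genes. The ratio of the highest to the lowest vehicle mouse had a median of 1.69 over the 39 genes and ran from 1.29 for Ifi27 to 2.91 for Oas3. Over the 10986 tested genes of at least 10 CPM, the median of that ratio was 1.29. The variation was shared among the genes. Vehicle mouse 4 had the lowest vehicle value for 29 of the 39 genes, and vehicle mouse 5 had the highest for 26 and vehicle mouse 3 for 12. A score for each library, the median over the 39 genes of log2 CPM minus the vehicle mean, was -0.05, -0.02, 0.16, -0.40 and 0.32 in vehicle mice 1 to 5.

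In the MMP9 group the score was 0.67, -0.08, 0.25, 0.29 and 0.40 in mice 1 to 5. Vehicle mice averaged 0.003 ± 0.271 and MMP9 mice 0.307 ± 0.269 (SD, n = 5), and the groups overlapped. Mouse 1 exceeded every vehicle mouse in 33 of the 39 genes, mouse 5 in 20, mouse 4 in 17 and mouse 3 in 14. Mouse 2 did so in 1 gene and had the lowest MMP9 value in 20 genes. Mouse 1 held the highest value of all 10 libraries for 24 genes, mouse 4 for 8 and mouse 3 for 4, and vehicle mouse 5 for the other 3. The MMP9 mice also differed in which genes were high. Mouse 3 was the highest of all for Ifit1, Rsad2, Oasl1 and Trim25, yet was the lowest MMP9 mouse for Irf7, Ifi44 and Bst2. Mouse 4 was the highest of all for Ifit3, Ifit3b, Isg15, Ifi27, Ifi35, Rtp4, Ifi204 and Phf11d, yet the lowest MMP9 mouse for Parp14, Stat2, Oas2 and Oas3.

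**Figure D3:**
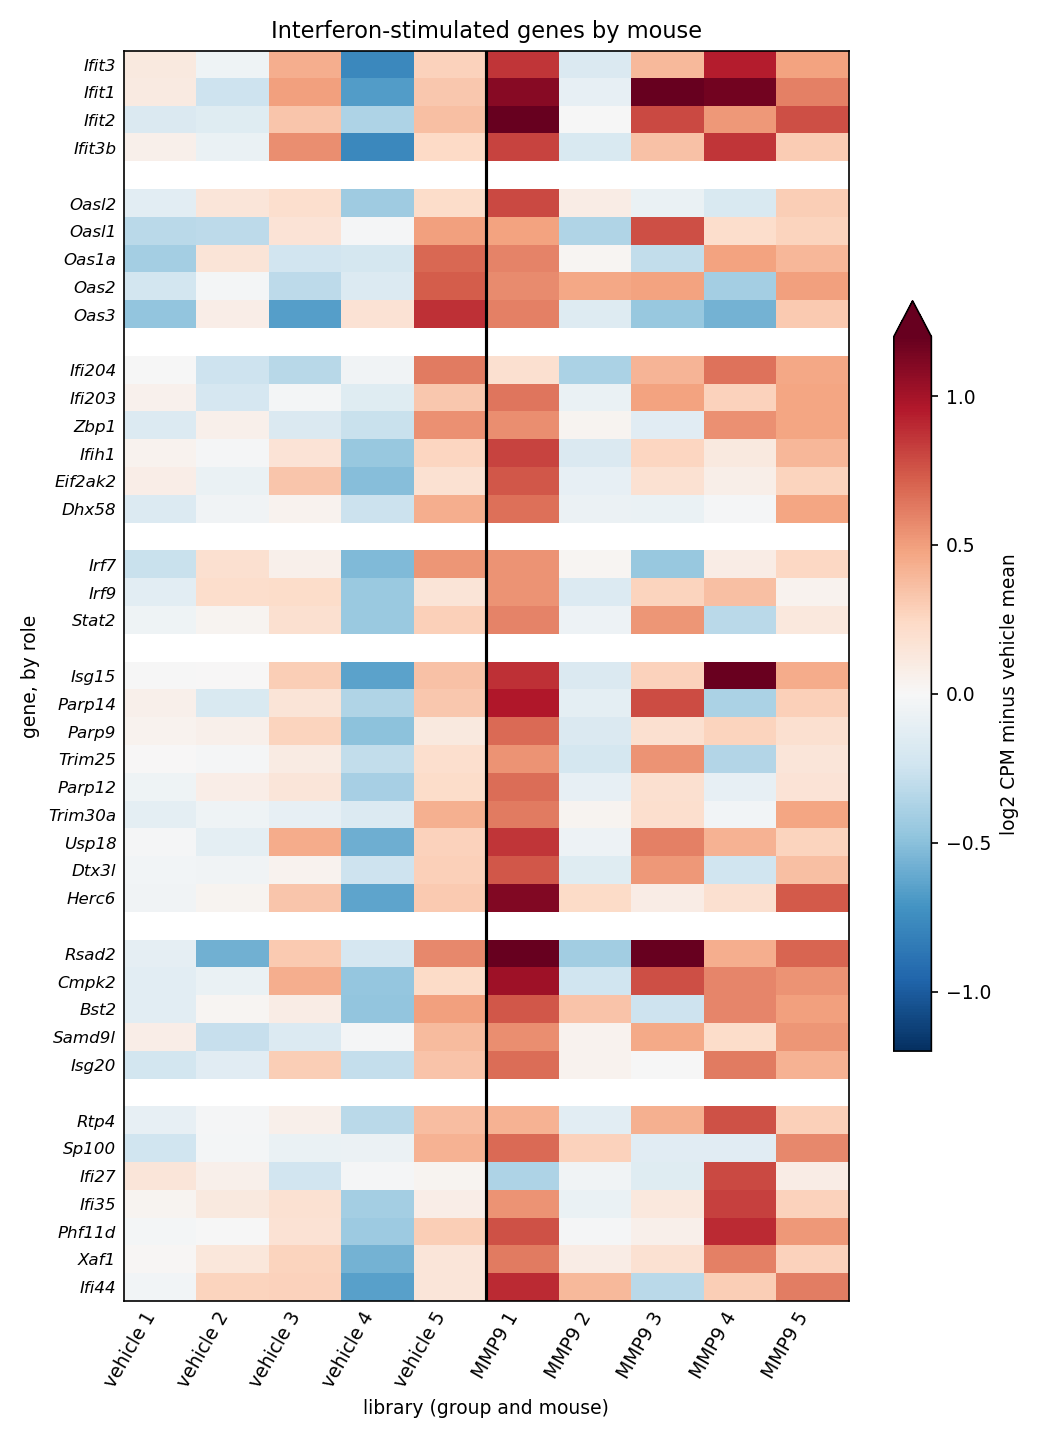
Log2 CPM minus the vehicle mean (colour) for the 39 genes (rows, by role) in the 10 libraries (columns; the line parts vehicle from MMP9). Vehicle mouse 4 is low and MMP9 mouse 1 high in most rows, MMP9 mouse 2 is close to the vehicle mean, and MMP9 mice 3 and 4 are high in different rows.

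The values of MMP9 mouse 4 moved with transcript length. Effective lengths implied by the deposited counts and FPKM ran from 707 bases for Isg15 to 7229 for Parp14. In the 20 genes of up to 2655 bases this library lay at a median of 0.31 above the mean of the other 4 MMP9 mice on the log2 scale. In the 19 longer genes its median was -0.34. The same held over all tested genes with a length, at 0.31 for the 6882 shorter and -0.25 for the 7092 longer genes. The difference of shorter minus longer genes in this library was 0.65 over the 39 genes and 0.56 over all genes. The same difference, each library set against the others of its group, was between -0.02 and 0.03 over all genes in the vehicle mice. In the other 4 MMP9 mice, whose comparison includes mouse 4, it was between -0.24 (mouse 1) and -0.08 (mouse 5) over all genes. Over the 39 genes it was -0.22 in MMP9 mouse 1, -0.08 in mouse 2, -0.38 in mouse 3 and -0.13 in mouse 5. The log2 fold change without MMP9 replicate 4 was 0.37 for Ifit3, 0.21 for Ifi35 and 0.51 for Parp14, against 0.50, 0.36 and 0.37 with it. The median over the 39 genes was 0.31 with and without this library, and the part of length in the values of single genes was not tested.

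**Figure D4:**
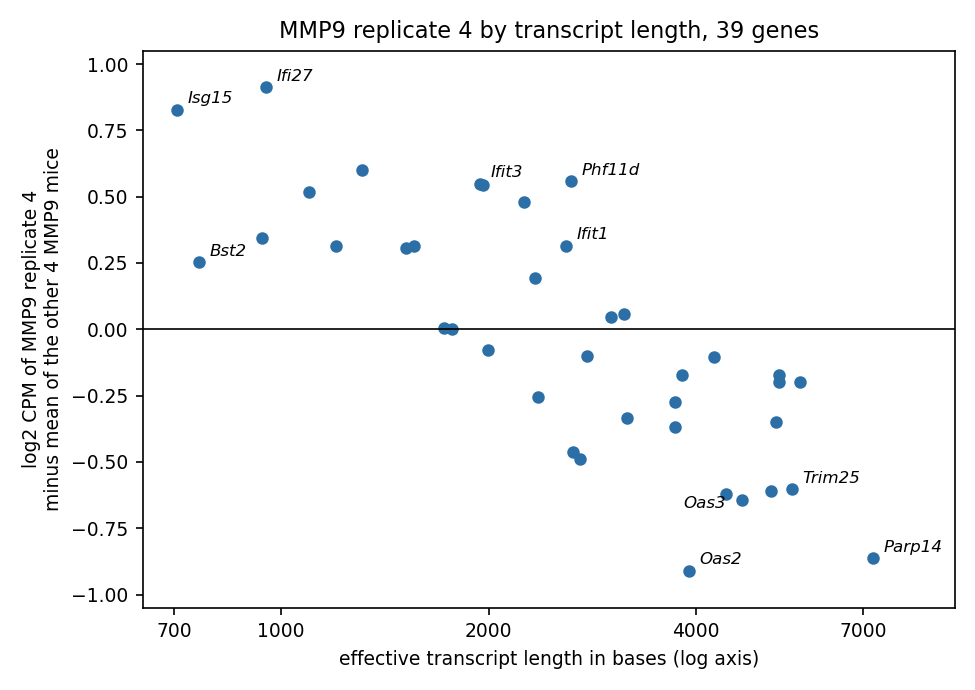
Log2 CPM of MMP9 replicate 4 minus the mean of the other 4 MMP9 mice (y axis) against effective transcript length in bases (x axis, log scale); each point is 1 of the 39 genes. Short transcripts such as Isg15 and Ifi27 lie above 0 and long ones such as Parp14 and Trim25 below.

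Upstream of these genes, the interferon ligands were barely detected. Of 11 listed ligand genes 4 were in the table, with 13 counts of Ifnb1, 24 of Ifnk, 22 of Ifnz and 33 of Ifng over all 10 libraries, and none reached the filter. The other 7 were not analysed here. Receptor and signalling genes had positive log2 fold changes in 9 of 11 (median 0.10), and in 6 of 11 (median 0.06) without MMP9 replicate 1. The median was 0.05 without MMP9 replicate 5, 0.06 without vehicle replicate 3, and 0.03 on both TPM scales. Stat3 and Jak1, the most abundant, had values of -0.08 and 0.01. Upstream sensing genes were positive in 6 of 12 (median 0.02), with Myd88 at 0.12, Irf3 at 0.08 and Irf5 at -0.001. Feedback genes were positive in 3 of 6 (median 0.0009), with Socs3 at -0.06, Irf2 at -0.03 and Ptpn6 at 0.03. Single genes spread wider, from -0.32 (Tlr9) to 0.41 (Tlr3) in sensing and from -0.06 (Socs3) to 0.48 (Socs1) in feedback. These extremes are named for their values. The medians of the sensing and feedback lists changed sign over the alternatives, from -0.08 to 0.07 for sensing and from -0.06 to 0.06 for feedback.

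Other interferon-induced genes outside the 39 were positive in 14 of 16 tested (median 0.25), and genes known best as targets of interferon gamma in 12 of 12 (median 0.46). Without MMP9 replicate 1 the first list was positive in 12 of 16 with a median of 0.13, and without both low-hair libraries its median was 0.09. It was 0.15 and 0.16 with log2(TPM + 1) and log2(TPM + 0.1). The median of the second list ran from 0.36 to 0.56 over the alternatives. No gene of any of these lists passed the test. Ifitm3 and Ifitm2, which code for membrane proteins that block virus entry, were abundant and close between groups, at 784 ± 89.5 and 837 ± 76.1 CPM and at 475 ± 35.0 and 465 ± 38.9 CPM. Lgals9 had a log2 fold change of 0.10. The GTPase genes Gbp2 and Iigp1 had 241 ± 66.4 and 354 ± 78.3 CPM, and 178 ± 54.1 and 274 ± 69.1 CPM, and 4 of 5 MMP9 mice exceeded every vehicle mouse in each. Tap1, a peptide transporter of antigen presentation, had a log2 fold change of 0.20.

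**Figure D5:**
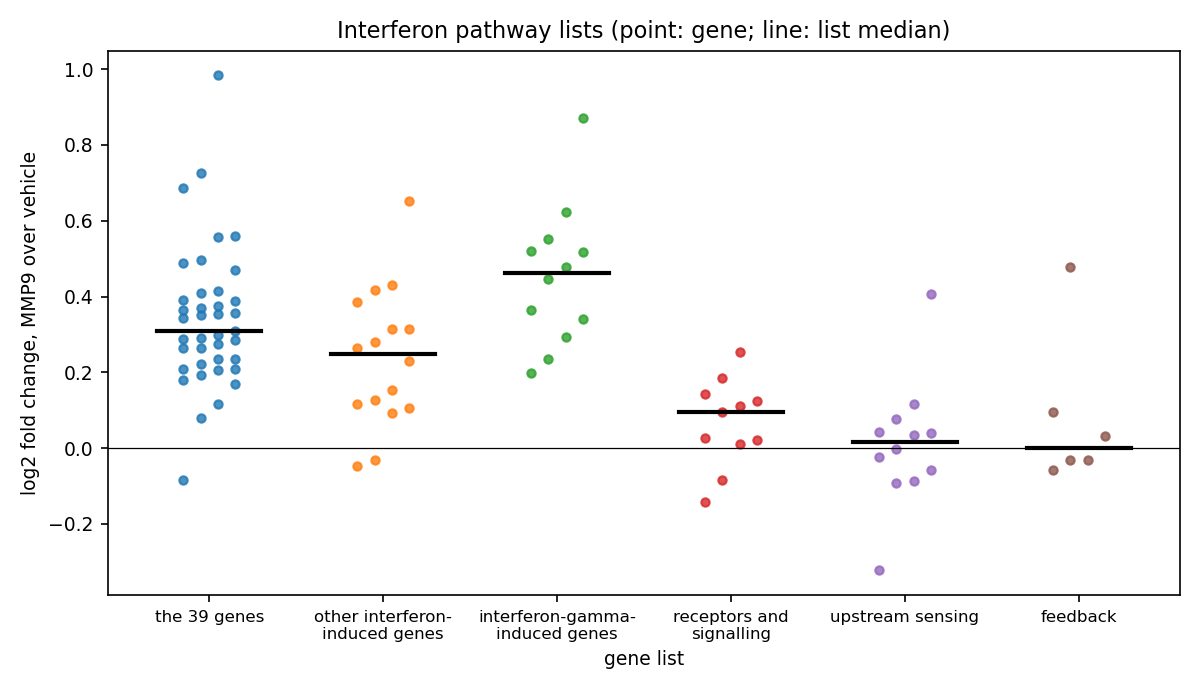
Log2 fold change of MMP9 over vehicle (y axis) for the tested genes of 6 interferon pathway lists (x axis); each point is a gene and the line is the list median. Medians of the induced lists lie at 0.31, 0.25 and 0.46, and those of receptors, sensing and feedback at 0.10, 0.02 and 0.0009.

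Markers of cell types that the tissue could hold were summed in each library, as CPM of the total count. In bulk tissue fewer cells of a type and less RNA per cell cannot be told apart. T cell markers, 5 of 5 with positive log2 fold changes, summed to 46.4 to 53.0 CPM in vehicle and 59.5 to 68.1 CPM in MMP9, without overlap. Markers of conventional dendritic and Langerhans cells, also 5 of 5 positive, summed to 28.5 to 41.6 and 43.5 to 53.7 CPM, again without overlap. Cd207, the Langerhans cell marker, made up the greater part of that sum, with means of 20.1 ± 4.93 and 28.4 ± 6.40 CPM in the vehicle and MMP9 mice. The other 4 markers summed to 9.95 to 24.9 and 16.2 to 25.3 CPM, with overlap. Without Cd3g, the most abundant T cell marker, the T cell sums were 25.8 to 31.7 and 33.96 to 41.0 CPM, without overlap. By single gene, in CPM scaled by the TMM factors, the groups did not overlap for Cd3g and Cd247, 2 of the 5 T cell markers. The share of all tested genes without overlap was 0.564%. Cd247 stood at 13.2 to 16.7 CPM in vehicle and 17.8 to 23.9 CPM in MMP9. Cd3d, Cd3e and Lck overlapped, and Cd3e had a log2 fold change of 0.06. The sums overlapped for NK cells (12.7 to 17.9 and 13.7 to 21.5 CPM), monocytes (82.8 to 288 and 115 to 247 CPM), macrophages (121 to 573 and 192 to 502 CPM) and neutrophils (42.3 to 193 and 27.2 to 83.5 CPM). They also overlapped for fibroblasts (4750 to 8281 and 5846 to 10357 CPM) and endothelial cells (336 to 437 and 266 to 451 CPM). All tested markers were positive for NK cells (4 of 4), plasmacytoid dendritic cells (4 of 4) and fibroblasts (5 of 5) too. Their median log2 fold changes were 0.46, 0.22 and 0.17, against 0.43 for T cells and 0.26 for the conventional dendritic and Langerhans list. Of the plasmacytoid dendritic cell markers, Cox6a2 is also a muscle gene and made up most of the sum of 238 to 475 CPM over all libraries. Siglech, the more specific marker, stood at 1.15 to 2.76 CPM in vehicle and 1.30 to 3.68 CPM in MMP9, here scaled by the TMM factors. The neutrophil marker Ly6g had 10 counts in all and was at 0 in 4 libraries. MMP9 mouse 2, whose interferon score was -0.08, had T cell and dendritic sums of 64.8 and 52.1 CPM, within the range of the other MMP9 mice. Vehicle mice 4 and 5, with the lowest and the highest vehicle scores, had the highest macrophage sums, 522 and 573 CPM. The part of these cell types in the levels of the 39 genes was not tested.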

How the data were processed

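The authors deposited 1 table of 18994 genes with estimated read counts, FPKM and TPM for 10 libraries, per the file headers. Of the deposited counts, 60.8% are not whole. Reads were single-end of 50 bases from oligo(dT)-selected mRNA, per the labels' protocols. The submitters' processing notes name HISAT and GRCm39; no source used here names the program that made the counts, its annotation or the use of strand.

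The deposited estimated counts were rounded. The test was edgeR's (4.0.16, under R 4.3.3; TMM factors, filterByExpr, quasi-likelihood F test, treatment as the only term, Benjamini-Hochberg adjustment, threshold 0.05). Log2 levels used a prior count of 2. The deposited TPM were used for order by level, and the FPKM with counts for effective length. Genes given in full were the 2 most abundant of each role group over all libraries, with the highest and lowest fold change. In other lists the 3 most abundant are named, except 1 that is not reported here. The genes and lists were chosen with earlier results of these data known. Further genes named for their pattern across mice were chosen after their values were seen. Depth was 17121600 to 19443100 counts a library. P-values rest on the spread between 5 mice a group, which edgeR moderates for each gene toward the trend over all tested genes. Alternatives were RLE factors, no filter, DESeq2 1.42.0, limma-voom (3.58.1), limma on log2(TPM + 1) and log2(TPM + 0.1), a mouse-number block, and leaving out each mouse. The test was checked on simulated counts. Promoters came from RefSeq (GRCm38.p6, not the authors' build) by Entrez identifier.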

Additional observations from a re-analysis of the deposited data

Results flagged for a closer look

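Within groups of 5 mice, a value was set apart where its gap to the nearest other mouse was over 0.71 of the group's range (Dixon's limit), and chance alone does so in about 1 of 20 groups. Of 80 groups examined (39 genes and the score, in vehicle and in MMP9), 5 values were set apart. Vehicle mouse 5 was high for 4 genes, at 41.2 CPM for Oas2, 83.8 CPM for Trim30a, 272 CPM for Ifi204 and 122 CPM for Sp100. MMP9 mouse 4 was low for Oas2, at 18.7 CPM, against 34.4 to 36.9 CPM in the other MMP9 mice.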

How the results depend on the processing

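The 39 genes were not called under any alternative run. DESeq2 called 1 gene of the whole table (Pnliprp2, not among the 39), and every other alternative called 0. The number of the 39 genes with a positive log2 fold change was 37 to 39 when each mouse was left out in turn, and 37 on both TPM scales. Their median log2 fold change was 0.24 (without MMP9 replicate 1) to 0.43 (without vehicle replicate 5) when each mouse was left out. Of 702 values (39 genes under 18 alternatives) 693 kept the sign of the main result. The 9 others belong to 3 genes. Ifi27 was -0.011 with log2(TPM + 1) and with log2(TPM + 0.1), and -0.12 to 0.22 as single mice were left out. Over all tested genes the median log2 fold change on these TPM scales was -0.043 and -0.052, against 0.01 in the main fit. Irf7 ranged from -0.049 to 0.22 and Oas3 from -0.28 to 0.19 as single mice were left out. Irf7 was -0.0069 without vehicle replicate 2 and MMP9 replicate 1 together, a choice made after seeing the data. The cause of these changes was not tested. The share of promoters with the motif core was 90% with 1 mismatch allowed, which by construction matches more windows, and 36.7% when only the 250 bases before the start were searched. The number of tested genes at an unadjusted p under 0.05 was 487, and 241 and 230 on the TPM scales with 1 and 0.1 added.

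Mouse numbers in the labels are shared by the groups but name different mice. For that reason the numbers were not taken as pairs. Deviations of same-numbered mice correlated from -0.24 to 0.46. Differently numbered mice were not compared, so these values cannot show whether a number marks a shared batch. With the replicate block 0 genes were called, 554 genes were under an unadjusted 0.05, 38 of the 39 were positive and their median was 0.30.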

Other observations

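The chemokine gene Cxcl10, singled out after its values were seen, had 82.2, 58.9, 151, 79.5 and 109 CPM in vehicle mice 1 to 5 and 263, 69.0, 284, 136 and 127 CPM in MMP9 mice 1 to 5. As for Rsad2, MMP9 mice 1 and 3 were the highest of all 10 libraries and MMP9 mouse 2 lay low in the vehicle range.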
